A study of Mus musculus with 21 samples.

Results

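Cytosolic ribosomal protein genes were followed through 21 RNA-seq libraries of bone marrow-derived macrophages from C57Bl6/J mice. A gene was a member when its first symbol was Rpl or Rps with a number and, where present, a short letter ending, or was Rpsa, Rplp0, Rplp1 or Rplp2, and when its mean over the 12 libraries of the fatty acid table was at least 10. Pseudogene names ending in -ps, S6 kinase names and Gm models were left out. The rule kept 81 of 50645 gene IDs, 49 of the large and 32 of the small ribosomal subunit. The members were selected on this mean of deposited values, so their high level is a description and no result. The lowest member was Rpl7l1 with a mean of 22.9, followed by Rpl36al with 44.5, Rpl22l1 with 51.7 and Rpl22 with 63.0. Of the 84 matching names, 3 stayed below the limit, Rpl39l with a mean of 0.582, Rpl3l with 0.104 and Rpl10l listed at 0. The highest means were those of Rps29 (763), Rpl10 (761), Rps24 (669) and Rpl32 (646).

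All donors were 24 weeks old, and their diet for 24 weeks was chow or a Western diet high in fat, sugar and cholesterol. Marrow cells were grown in RPMI-1640 with L929 cell supernatant, which supplies the growth factor M-CSF. The 7 groups held 3 libraries each. In the fatty acid table, all 4 groups came from chow donors. They were an untreated control, a group given 100 ng/ml lipopolysaccharide (LPS) from E. coli for 24 h on day 7, a group that had spent its first 4 days in 10 mM palmitic and oleic acid (1:3) before the same LPS, and a group with 200 nM TAK242 beside the fatty acid before LPS. TAK242 inhibits TLR4, the LPS receptor. No group had fatty acid or TAK242 without LPS. The Western diet table held 3 other untreated chow libraries and 3 libraries each labelled Western diet without LPS and Western diet with LPS. The LPS label there stands for the same treatment, 100 ng/ml for 24 h on day 7.

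The cytosolic ribosome is built from ribosomal RNA and about one copy of each ribosomal protein, so cells make these proteins in matched amounts, and their mRNAs are among the most abundant of a growing cell. Many of these mRNAs begin with a C followed by a run of C and T letters, the terminal oligopyrimidine (TOP) start, through which mTOR and LARP1 set how much of the mRNA is translated and kept. In macrophages, LPS acts through TLR4 to turn on inflammatory genes.

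The files do not name the unit, so a level is called a deposited value, and levels of different genes are not ranked against each other except where the rule's own means are listed. Library sums ran from 321532 to 386023, and 8803 to 10145 genes had a value of at least 1. Read depth is unknown from these values. Log2 changes were fitted on log2(value + 1), which understates changes of low genes. Each comparison is given as deposited and after median-ratio scaling. In that scaling each library was divided by its median ratio to the geometric mean of the libraries. The ratios were taken over genes nonzero in every library with a mean of at least 1, which is not the set of genes tested. The fit treated the 3 libraries of a group as replicates. Whether replicates are separate animals or separate cultures is not in the labels, so p-values measure only the spread between these libraries. All 81 members passed the filter on low values in both tables, which asked for 3 libraries with a value of 1 or higher. All 8 macrophage markers were present in the fatty acid table, with summed values from 8741 to 10788, most of it from Lyz2, whose group means ran from 5715 to 8087. Of the 8, 5 rose and 1 fell with LPS (limma, adjusted p under 0.05). The 1 that fell was Cd68, by 1.13 (adjusted p = 6.25e-07), while Adgre1 rose by 1.84 (adjusted p = 2.01e-07) and Cd14 by 3.55 (adjusted p = 2.4e-06). Summed T cell markers reached at most 3.22, B cell markers 2.59, dendritic cell markers 0.530 and erythroid markers 0.234. Neutrophil and granulocyte precursor markers summed to 6.77 to 9.63 in untreated, 6.26 to 13.3 in LPS, 4.35 to 5.95 in fatty acid then LPS and 4.54 to 6.52 in TAK242 libraries. Of these Camp rose with LPS by 1.49 (adjusted p = 0.000131) and fell by 1.09 between LPS alone and fatty acid then LPS (adjusted p = 0.00362). The other tested markers of this list, Ngp and Ltf, were called in neither comparison. Their changes were -0.07 and -0.68 with LPS (limma, adjusted p = 0.899 and 0.0992). Between LPS alone and fatty acid then LPS they were -0.43 and -0.04 (adjusted p = 0.43 and 0.931). Elane, Ly6g, Mpo and Retnlg were too low to be tested. Stromal markers summed to 17.7 to 27.0 in untreated, 27.0 to 53.0 in LPS, 13.2 to 16.3 in fatty acid then LPS and 21.9 to 26.2 in TAK242 libraries. Of the 5 stromal markers tested, 4 rose with LPS (limma, adjusted p under 0.05), beside 13.8% of all tested genes. Between LPS alone and fatty acid then LPS 4 fell, beside 15.3%, and with TAK242 2 rose, beside 3.01%. The part of these markers in the results was not tested.

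The first letters of the members' transcripts are shown because the TOP start is what is known to set this gene family apart. RefSeq starts on GRCm38.p6 were matched for 61 of the 81 members, with 72 starts. Each sequence below holds the 30 bases before the start and the first 20 transcribed bases, 5′ to 3′, with the unbroken run of C and T from the start base in capitals where that base is a C. Rpl15 had the longest run of those shown, at chr14:18270967-18271016 on the minus strand. Rps6 lies at chr4:86857348-86857397 and Rps18 at chr17:33955646-33955695, both on the minus strand. Rps27 lies at chr3:90213629-90213678 on the minus strand and Rplp2 at chr7:141447621-141447670 on the plus strand. The last 3 are shown for contrast. Rpl7l1 at chr17:46782637-46782686 (minus) has a single C. Rpl12 at chr2:32961682-32961731 (plus) and Rpl24 at chr16:55966245-55966294 (plus) do not start with C at the annotated base.
Rpl15: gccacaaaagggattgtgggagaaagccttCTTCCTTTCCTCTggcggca
Rps6: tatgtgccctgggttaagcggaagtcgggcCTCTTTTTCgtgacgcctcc
Rps18: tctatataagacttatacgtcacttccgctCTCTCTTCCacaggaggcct
Rps27: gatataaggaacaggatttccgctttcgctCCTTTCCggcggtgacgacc
Rplp2: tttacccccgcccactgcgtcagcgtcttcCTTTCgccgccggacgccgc
Rpl7l1: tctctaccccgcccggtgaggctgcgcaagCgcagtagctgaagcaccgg
Rpl12: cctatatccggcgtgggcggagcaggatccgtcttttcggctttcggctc
Rpl24: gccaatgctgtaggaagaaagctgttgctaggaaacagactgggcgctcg

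A C at the annotated start was found in 30.6% of the 72 member starts and in 16.3% of all 32851 RefSeq starts. A C that opened a run of at least 5 C or T letters was found at 13 member starts, 18.1%, against 2.51% of all starts. The 13 genes were Rpl14, Rpl15, Rpl28, Rpl35, Rpl35a, Rpl38, Rplp2, Rps10, Rps15a, Rps18, Rps21, Rps27 and Rps6. An annotated start can lie some bases from the one used in these cells, which no file here measures, so these shares describe the annotation. In the window from 250 bases before to 50 after the start, both strands searched, CCGGAAG stood in 36.1% of member windows against 8.86% of all. ATGGCG stood in 30.6% against 8.93%, GGGCGG in 62.5% against 35.7%, and TATAAA in 9.72% against 13.6%. These matches are descriptions of letters and not of bound factors.

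Among the 4 groups of the fatty acid table, the summed value of the 81 genes took the largest share of the library in untreated macrophages. In the fatty acid table it was 10.4%, 9.22% and 9.70% of the library sum in the untreated libraries and 7.00%, 6.24% and 6.58% with LPS. It was 5.05%, 5.13% and 4.94% when fatty acid came before LPS, and 5.27%, 5.75% and 5.46% with TAK242 beside the fatty acid. No library of one of these 4 groups overlapped with one of another. The group means were 9.79% ± 0.612, 6.61% ± 0.381, 5.04% ± 0.0913 and 5.5% ± 0.241 (SD, n = 3 each). The 10 most abundant genes of each library took 19.7% to 20.3% of the sum in untreated libraries, 24.6% to 30.7% with LPS, 24.0% to 24.4% for fatty acid then LPS and 23.7% to 32.3% with TAK242. After median-ratio scaling the summed member values were 33880, 27179 and 28959 in untreated and 29198, 25957 and 25249 in LPS libraries, and these 2 groups overlapped. They were 18381, 18515 and 17302 for fatty acid then LPS and 20899, 22218 and 19373 with TAK242, each below all untreated and LPS libraries. In the Western diet table, the untreated chow libraries had a share of 14.1% to 14.7% as deposited, above every library of the fatty acid table. This gap between untreated chow groups was not tested. In bulk RNA, fewer cells of a type and less RNA per cell cannot be told apart.

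**Figure D1:**
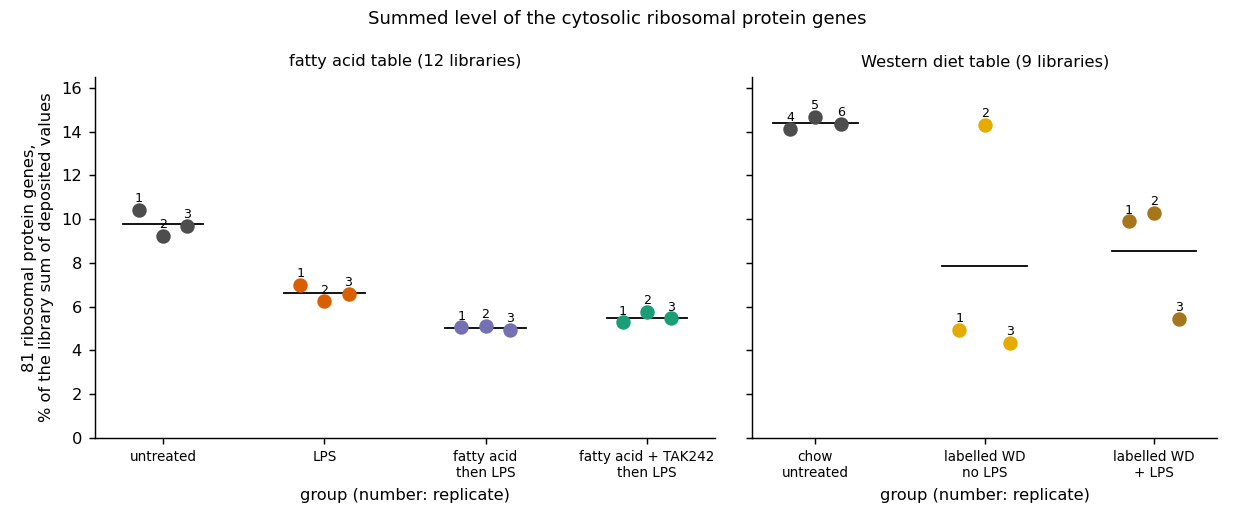
Share of each library's summed deposited value (y axis, %) taken by the 81 ribosomal protein genes, 1 point per library with its replicate number and a line at the group mean. In the fatty acid table the 4 groups are apart (untreated 9.22% to 10.4%, fatty acid then LPS 4.94% to 5.13%), while in the Western diet table the libraries labelled Western diet without LPS lie at 4.94%, 14.3% and 4.33%.

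Against untreated macrophages, most ribosomal protein mRNAs were lower with LPS as deposited. Of the 81 genes, 65 fell and 1 rose, against a background of 47.9% of the 10476 tested genes lower and 13.8% higher (limma, Benjamini-Hochberg adjusted p under 0.05). The median log2 change was -0.55, a fold of 0.685 or 31.5% lower, with a range from -1.05 to 0.64. The median over all tested genes was -0.31. In 68 members all 3 LPS libraries lay below all 3 untreated libraries, and in 1 above; over all tested genes these shares were 50.1% and 15.0%. Among the 3977 tested genes with a mean of at least 10, the median change was -0.22 and 41.7% fell, and 73 of the 81 members lay below that median.

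After median-ratio scaling, which moved the median of genes with a mean of at least 10 from -0.22 to 0.13, far fewer members were called. There 18 members fell, 3 rose and 60 were not called, with a median of -0.18 and a background of 27.9% lower and 26.2% higher. This count rested on single libraries: without untreated replicate 1 it was 10 lower (median -0.06, against 26.8% of all genes), and without LPS replicate 2 it was 10 lower (median -0.14, against 25.3%). Groups did not overlap in 21 members that were lower and 4 that were higher, against 30.3% and 28.9% of all genes. The share of members called lower was thus below the background on this scale, while 73 members still lay below the median of the genes with a mean of at least 10. Dividing each library by its sum instead gave 68 lower and 1 higher, with a median of -0.59, against 49.7% and 13.0% of all tested genes.

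Members of both subunits were called lower in the LPS comparison. As deposited, 25 of the 32 small subunit genes fell, with a median of -0.61, and 40 of the 49 large subunit genes fell and 1 rose, with a median of -0.49. Of all tested genes 47.9% were lower and 13.8% higher. After scaling the small subunit had 10 lower and a median of -0.24, and the large subunit 8 lower, 3 higher and a median of -0.13. On that scale 27.9% of all tested genes were lower and 26.2% higher. The small subunit's share lower was near that background and the large subunit's below it. The difference between subunits was not tested.

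Rpl10a, a protein of the large subunit's mobile L1 stalk, had deposited values of 337, 317 and 298 in untreated and 175, 152 and 143 in LPS libraries. All LPS values lay below the untreated ones, and the gene fell by 1.02 (SE 0.14, adjusted p = 7.54e-05). On the scaled values it fell by 0.65 (adjusted p = 0.00257). Rpl12, a protein at the base of the stalk that recruits translation factors, had 422, 362 and 388 untreated against 247, 183 and 186 with LPS. It fell by 0.94 (SE 0.14, adjusted p = 0.000152), again without overlap, and by 0.57 after scaling (adjusted p = 0.00628). Rpl22l1, a paralog of Rpl22, showed the lowest log2 change of all members. Its values were 96.1, 82.0 and 80.8 untreated against 40.3, 39.7 and 43.1 with LPS, a fall by 1.05 (SE 0.21, adjusted p = 0.00109).

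Among the proteins of the stalk itself, Rplp0, the anchor, was at 696, 562 and 567 untreated and 454, 410 and 397 with LPS. Rplp1, one of the acidic proteins bound to it, was at 1008, 907 and 922 untreated and 653, 574 and 535 with LPS. Both fell as deposited, Rplp0 by 0.53 (SE 0.12, adjusted p = 0.0029) and Rplp1 by 0.69 (SE 0.14, adjusted p = 0.00128), and neither passed after scaling (adjusted p = 0.297 and 0.0539). Rplp2, the other acidic protein, was at 261, 263 and 271 untreated and 247, 238 and 205 with LPS. These groups did not overlap, yet the change of -0.21 did not pass (SE 0.11, adjusted p = 0.114), and it was 0.16 after scaling. Rpsa, the small subunit protein also known as a laminin receptor, was at 471, 412 and 415 untreated and 284, 254 and 197 with LPS. It fell by 0.83 (SE 0.14, adjusted p = 0.000351), and by 0.47 after scaling (adjusted p = 0.0235). Rps6, the target of S6 kinase, was at 286, 314 and 261 untreated and 268, 202 and 211 with LPS. Its groups overlapped, and the change of -0.34 did not pass (SE 0.14, adjusted p = 0.0524). Rpl41, whose product is a very short peptide, was at 219, 174 and 191 untreated and 127, 124 and 129 with LPS, a fall by 0.61 (SE 0.15, adjusted p = 0.00408) that did not pass after scaling (adjusted p = 0.235).

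Rpl24, a protein at a bridge between the subunits, went the other way. Its untreated values were 368, 322 and 337 and its LPS values 655, 501 and 466. Every LPS library lay above every untreated one, and the gene rose by 0.64 (SE 0.13, adjusted p = 0.00106), and by 1.01 after scaling (adjusted p = 9.2e-05). The transcript Gm28037 shares 484 of the 1030 exon bases of Rpl24 on the same strand, and its mean went from 350 ± 24.1 to 547 ± 99.6 (SD, n = 3) between these groups. How the authors divided reads between the 2 entries is not given in the sources used here, so the level of Rpl24 is uncertain. Rpl7l1 and Rpl27 were the other members above 0 after scaling with a call. Rpl7l1, a nucleolar relative of Rpl7, was at 22.4, 22.6 and 20.8 untreated and 22.0, 22.4 and 23.4 with LPS. Its change was 0.04 as deposited (SE 0.07, adjusted p = 0.617) and 0.40 after scaling (adjusted p = 0.000208). Rpl27 was at 270, 241 and 232 untreated and 242, 240 and 223 with LPS, a change of -0.07 as deposited (SE 0.10, adjusted p = 0.551) and 0.29 after scaling (adjusted p = 0.0296). Both groups overlapped as deposited in these 2 genes.

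**Figure D2:**
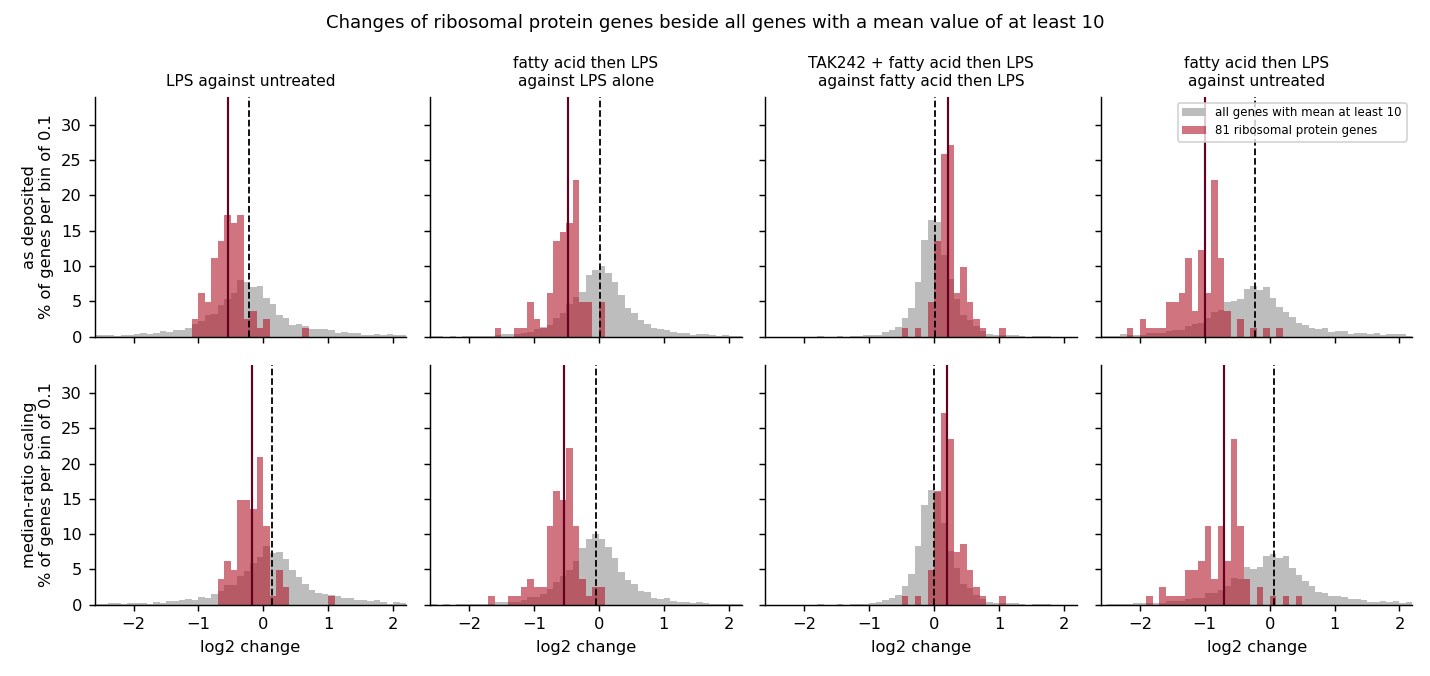
Distribution of log2 changes (x axis) as the share of genes per bin of 0.1 (y axis, %), for the 81 ribosomal protein genes and for all tested genes with a mean of at least 10, with a solid line at the members' median and a dashed line at the median of the other distribution. The upper panels are as deposited and the lower after median-ratio scaling; in the LPS comparison the members' median lies at -0.55 and -0.18, and with fatty acid before LPS against LPS alone at -0.48 and -0.54.

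Macrophages grown in fatty acid before LPS had lower ribosomal protein mRNA than macrophages given LPS alone. As deposited, 59 of the 81 genes fell and 0 rose, against a background of 15.3% lower and 21.8% higher among all tested genes. At an unadjusted p under 0.05 limma gave 65 members. Here and below, counts at that limit come without the share over all tested genes and are not read as particular to the members. The median log2 change was -0.48, or 28.2% lower, and the range ran from -1.60 to 0.08. The median over all tested genes was 0.06. In 67 members the 3 libraries of the fatty acid group lay below all LPS libraries, against 21.4% of all genes. Among genes with a mean of at least 10, the median was 0.01 and 19.8% fell, and 78 members lay below that median.

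Scaling left this comparison in place. After it 65 members fell and 0 rose, with a median of -0.54, against 19.8% and 19.9% of all genes, and 71 members did not overlap on the lower side against 26.2%. Among genes with a mean of at least 10, 25.2% fell on this scale. With each library divided by its sum, 50 fell and 1 rose, against 12.9% and 29.2%, with a median of -0.37. As deposited 20 of 32 small subunit genes fell (median -0.42) and 39 of 49 large subunit genes (median -0.54), beside 15.3% of all tested genes. After scaling these were 23 and 42, with medians of -0.49 and -0.60, beside 19.8%.

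The members with the lowest changes were large subunit genes. Rpl36 was at 325, 316 and 280 with LPS and at 145, 93.9 and 74.8 with fatty acid before LPS. It fell by 1.60 (SE 0.21, adjusted p = 0.000608), without overlap. Rpl18 came next at -1.26, but its LPS libraries were at 80.1, 80.1 and 287 and its fatty acid libraries at 57.3, 45.7 and 49.2. With such a spread between LPS libraries the change did not pass (SE 0.62, adjusted p = 0.129). Rpl10a, at 175, 152 and 143 with LPS, was at 70.5, 81 and 66.3 with fatty acid before it, and fell by 1.10 (SE 0.14, adjusted p = 0.000531).

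The stalk genes fell together here, as deposited and after scaling. Rplp2 was at 247, 238 and 205 with LPS and 112, 92.5 and 106 with fatty acid before it, a fall by 1.14 (SE 0.11, adjusted p = 0.0002). Rplp1 was at 345, 265 and 240 with fatty acid before LPS and fell by 1.06 (SE 0.14, adjusted p = 0.000608). Rplp0 was at 300, 263 and 227 and fell by 0.68 (SE 0.12, adjusted p = 0.00225). In none of the 3 did the groups overlap. After scaling the falls were by 1.21, 1.13 and 0.75 (adjusted p = 0.000107, 0.0003 and 0.0014). Rpsa, at 133, 151 and 134, fell by 0.80 (adjusted p = 0.0021). Rps6, at 175, 184 and 157, fell by 0.39 (SE 0.14, adjusted p = 0.0488), close to the threshold.

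A few members did not move with the others. Rps24, a small subunit protein, was at 615, 593 and 642 with LPS and 638, 635 and 583 with fatty acid before it. These libraries overlapped fully, and the change was 0.00 (SE 0.08, adjusted p = 0.982), and -0.06 after scaling. Rpl5, which carries 5S ribosomal RNA into the large subunit, was at 88.0, 139 and 158 with LPS and at 129, 130 and 122 with fatty acid before it, a change of 0.03 (SE 0.17, adjusted p = 0.921). Rps19, whose gene is the one most often mutated in Diamond-Blackfan anaemia, had 230, 131 and 55.9 with LPS and 134, 125 and 116 with fatty acid before it. The change was 0.07 and did not pass. Rpl7l1, at 25.4, 23.9 and 22.8 with fatty acid before LPS, had a change of 0.08 (SE 0.07, adjusted p = 0.379). Rpl24 fell by 0.69 (SE 0.13, adjusted p = 0.00251) to 343, 339 and 312, within the range of its untreated libraries for the first 2 of these. Gm28037 had a mean of 342 ± 20.9 in that group.

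**Figure D3:**
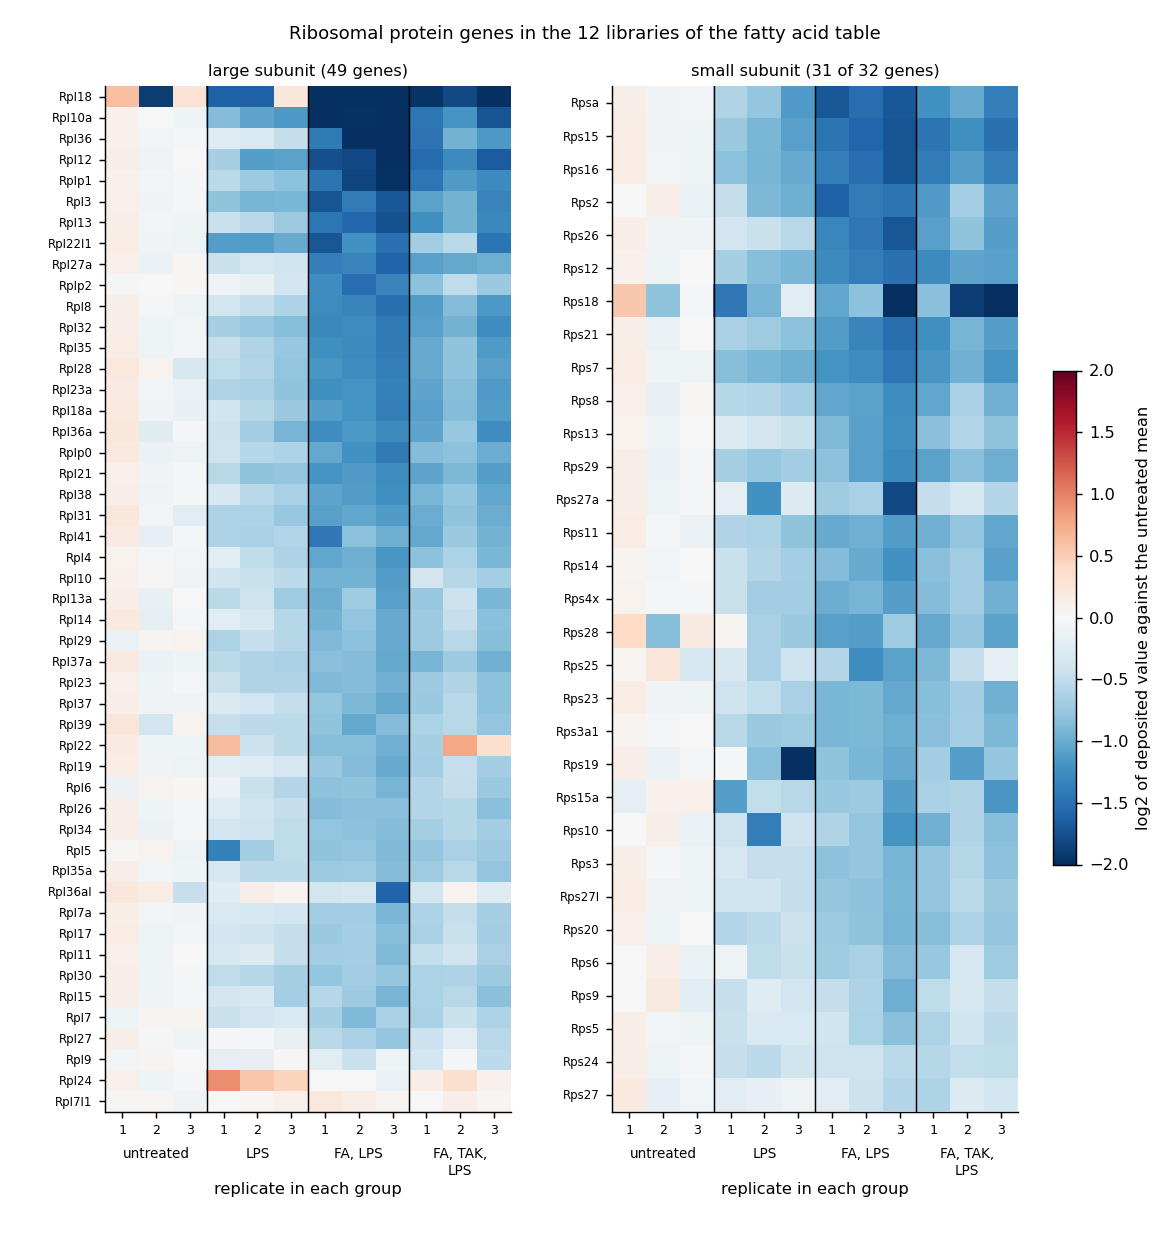
80 of the 81 genes in each of the 12 libraries of the fatty acid table, coloured by the log2 of its deposited value over its untreated mean (colour scale limited to -2 to 2), with large and small subunit genes in separate panels sorted by the mean of the fatty acid then LPS libraries. Most genes darken from LPS to fatty acid then LPS, while Rpl7l1 and Rpl24 stay at the foot of the large subunit panel and Rpl18, Rps18 and Rpl22 differ between libraries of 1 group.

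Against untreated macrophages, the fatty acid then LPS group combined both treatments, and this comparison shares its libraries with the 2 before. As deposited 74 members fell and 0 rose, against 44.9% lower and 15.2% higher of all tested genes. The median was -1.0, a fold of 0.500, and 40 of the 74 were at least 2-fold lower. Here and after scaling, 2-fold counts come without the share over all tested genes and are not read as particular to the members. In 77 members the groups did not overlap on the lower side, against 49.9% of all genes. Among genes with a mean of at least 10, the median was -0.22 and 42.3% fell, and 79 members lay below that median. After scaling 69 members fell and 1 rose, with a median of -0.70, against 29.9% and 26.4%, and 19 of the 69 were at least 2-fold lower. In 72 the groups did not overlap on the lower side, against 34.9%. The genes with a mean of at least 10 then had a median of 0.07, with 26.1% lower.

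As deposited, 30 of 32 small subunit genes fell (median -1.01) and 44 of 49 large subunit genes (median -0.92), beside 44.9% of all tested genes. After scaling 25 and 44 fell, and 1 large subunit gene rose, beside 29.9% lower and 26.4% higher. Rpl10a went from a mean of 318 ± 19.3 to 72.6 ± 7.57 (SD, n = 3) and fell by 2.12 (SE 0.14, adjusted p = 2.45e-07), the most of all members. Rpl36 fell by 1.93 (adjusted p = 1.37e-05) and Rpl12 by 1.84 (adjusted p = 8.23e-07), to 116, 112 and 97.5. Rplp1 fell by 1.75, Rpsa by 1.63, Rplp2 by 1.35 and Rplp0 by 1.21, all with adjusted p of 7.46e-06 or smaller. The 4 members with the highest means fell by 1.31 or less. Rps29, a zinc-binding small subunit protein, went from 1274, 1084 and 1151 to 661, 548 and 486, a fall by 1.06 (SE 0.12, adjusted p = 1.71e-05). Rpl32 went from 1149, 993 and 1005 to 427, 444 and 392, a fall by 1.31 (SE 0.10, adjusted p = 1.09e-06). Rpl10, which joins the large subunit late in its assembly, went from 1104, 1056 and 970 to 540, 541 and 482, a fall by 1.00 (SE 0.10, adjusted p = 6.57e-06). Rps24 went from 920, 792 and 835 to 638, 635 and 583, a fall by 0.45 (adjusted p = 0.000588) that did not pass after scaling (adjusted p = 0.153).

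The 7 members not called as deposited were Rps18, Rps19, Rpl22, Rpl36al, Rpl9, Rpl24 and Rpl7l1. Rpl7l1 had the highest change, 0.13 (SE 0.07, adjusted p = 0.146), and rose by 0.42 after scaling (adjusted p = 0.000134). Rpl24 had a change of -0.04 (adjusted p = 0.781) as deposited and 0.26 after scaling (adjusted p = 0.132). Rpl9 had a change of -0.26 (adjusted p = 0.116). Rps27, a small subunit protein with a zinc finger, went from 763, 593 and 643 to 575, 493 and 443 and fell by 0.40 (adjusted p = 0.0187) as deposited, but not after scaling (-0.10, adjusted p = 0.501).

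**Figure D4:**
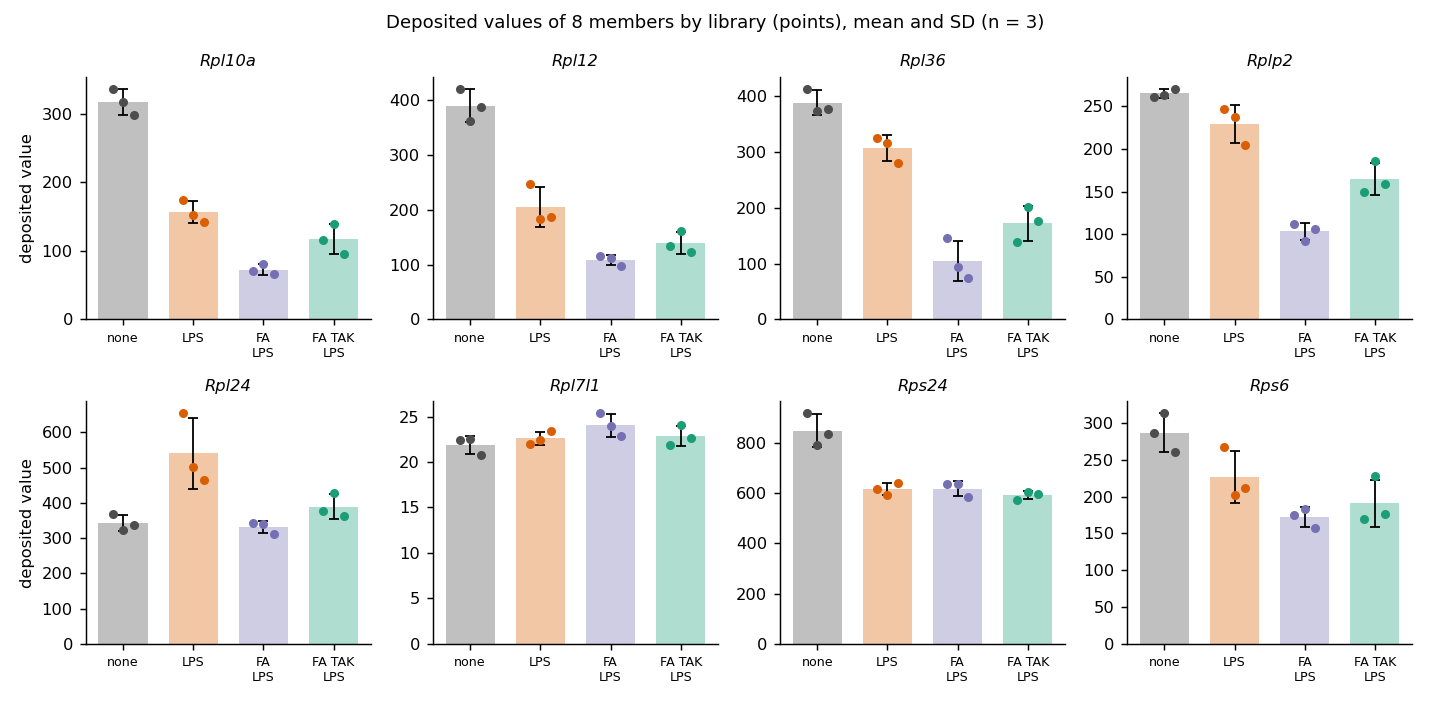
Deposited values (y axes, each from 0) of 8 ribosomal protein genes in the 4 groups of the fatty acid table, with 1 point per library and bars at the mean with its SD (n = 3). Rpl10a, Rpl12, Rpl36 and Rplp2 were lowest with fatty acid before LPS, Rpl24 was highest with LPS alone (466 to 655), and Rpl7l1 stayed between 20.8 and 25.4.

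Ribosomal protein values were slightly higher where TAK242 had been beside the fatty acid. Compared with fatty acid then LPS, 6 members rose and 0 fell, against 3.01% higher and 1.68% lower of all tested genes. At an unadjusted p under 0.05 limma gave 25, without a share over all genes to set beside it. The median log2 change was 0.21, and 75 of the 81 members lay above 0. In 35 members all TAK242 libraries lay above all fatty acid libraries, against 18.1% of all genes, and in 0 below, against 18.7%. The median among genes with a mean of at least 10 was 0.01. After scaling 7 members rose and 0 fell, with a median of 0.20, against 4.35% and 2.82%, and 43 did not overlap on the higher side against 19.7%.

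The 6 genes were Rplp2, Rpl10a, Rpl10, Rpl27a, Rpl3 and Rps26, and scaling added Rpl36. Rplp2 rose by 0.66 (SE 0.11, adjusted p = 0.0115), from 112, 92.5 and 106 to 150, 186 and 159. Rpl10a rose by 0.67 (SE 0.14, adjusted p = 0.0272), from 70.5, 81 and 66.3 to 116, 140 and 95.6. Neither gene overlapped between the groups. Rpl10 rose by 0.46 (adjusted p = 0.0315) from 540, 541 and 482 to 805, 706 and 649. Rpl3, a protein near the peptidyl transferase centre, rose by 0.49 (SE 0.12, adjusted p = 0.0439) from 147, 183 and 150 to 230, 252 and 193. Rpl27a, a large subunit gene, rose by 0.40 (SE 0.09, adjusted p = 0.0346), from 89.9, 92.5 and 76.4 to 110, 114 and 118. Rps26, which lies at the mRNA exit channel, rose by 0.48 (adjusted p = 0.0499), just inside the threshold, from 147, 135 and 111 to 172, 209 and 170. Rpl3, Rps26, Rpl10 and Rpl27a also did not overlap between the groups.

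The calls with TAK242 depended on single libraries. Without replicate 2 of the fatty acid then LPS group 0 members rose, and without replicate 2 of the TAK242 group 0 did. Without replicate 3 of the former or replicate 1 of the latter, 1 rose. Without replicate 1 of the former 4 rose, and without replicate 3 of the latter 5. With no filter on low values 1 rose. Shares over all genes in these fits are not given, so the counts show only how the members' calls moved. The median over members stayed between 0.13 and 0.26 over these left-out libraries. Rpl22, which had the highest change at 1.01, was at 42.6, 116 and 84.3 with TAK242 against 37.6, 37.5 and 34.7 and did not pass (SE 0.35, adjusted p = 0.119). Rpl36 was at 139, 202 and 175 against 145, 93.9 and 74.8, a change of 0.75 (SE 0.21, adjusted p = 0.0689, and 0.0427 after scaling) with 1 overlapping pair of libraries. At the low end stood Rps18 with -0.42 (SE 0.51, adjusted p = 0.662).

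Changes were also set against the members' own middle. For this each library was divided by the median deposited value of its members, a scaling chosen after the values were seen. The calls say only which members changed unequally to that middle value. It is not the members' median change, which on this scale was -0.04 with LPS and -0.06 with TAK242. For fatty acid then LPS against LPS alone it was 0.16, so the counts higher and lower are not centred on that change. With LPS, 6 members were higher than the middle (Rpl19, Rps27, Rpl9, Rpl27, Rpl7l1 and Rpl24) and 11 lower (Rpl22l1, Rpl10a, Rpl12, Rps16, Rps15, Rps7, Rpl3, Rpsa, Rps12, Rpl32 and Rps21). On this scale 28.0% of all tested genes were higher and 18.5% lower, both above the members' shares. For fatty acid then LPS against LPS alone, 26 were higher and 9 lower, against 68.3% and 3.94%. The 9 were Rpl36, Rplp2, Rpl10a, Rplp1, Rpl27a, Rps26, Rpl13, Rpl12 and Rpl8. With TAK242, Rplp2 and Rpl10a were higher and Rps24 lower, against 1.51% and 12.2%. The SD of the changes over the 81 members was 0.26 with LPS, 0.29 with fatty acid before LPS against LPS, 0.21 with TAK242 and 0.40 for fatty acid then LPS against untreated. Over the genes with a mean of at least 10 the SDs were 1.27, 0.63, 0.35 and 1.30. Across the 81 members, which share libraries, the rank correlation of the change with exon length was -0.02, 0.22, -0.08 and 0.18 in these 4 comparisons, and with the mean value 0.01, 0.08, -0.09 and 0.04.

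Genes with an annotated TOP start had median changes close to those of the other members. The 13 genes with a C start and a run of at least 5 had a median change of -0.50 with LPS and 9 lower, against -0.47 and 39 lower among the 48 other matched members and -0.57 and 17 lower among the 20 unmatched ones. For fatty acid then LPS against LPS alone the medians were -0.48, -0.48 and -0.48, and with TAK242 they were 0.14, 0.23 and 0.18. For fatty acid then LPS against untreated they were -0.90, -0.92 and -1.09. The difference between these sets was not tested. A C followed by at least 5 further C or T letters lay near the annotated start in 34 of the 72 member starts (47.2%), against 19.2% of all starts. The 48 other matched members can thus include genes with such a run off the annotated base. Rpl12 is one of them, with a run just after that base in the sequence above.

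Paralogs with a matching name are given pair by pair. Rpl7 was at 395, 440 and 441 untreated, 311, 326 and 346 with LPS and 268, 231 and 272 with fatty acid before LPS. It fell by 0.37 with LPS (SE 0.09, adjusted p = 0.00521) and by 0.35 between the latter 2 groups (adjusted p = 0.0148), whereas Rpl7l1 passed in neither as deposited. Rpl22, an RNA-binding large subunit protein, was at 76.0, 63.8 and 63.6 untreated and 104, 50.1 and 47.0 with LPS, a change of -0.11 (SE 0.35, adjusted p = 0.802). Rpl22l1 fell in that comparison, and with fatty acid before LPS it was at 26.2, 37.3 and 30.6. Rpl36a was at 302, 217 and 252 untreated and 191, 159 and 134 with LPS and fell by 0.67 (SE 0.16, adjusted p = 0.00426). Rpl36al was at 59.3, 56.0 and 36.8 untreated and 42.8, 55.0 and 52.4 with LPS, a change of 0.00 (SE 0.30, adjusted p = 0.992). Rps27l, known as a p53 target, was at 262, 226 and 222 untreated and 180, 179 and 170 with LPS and fell by 0.42 (SE 0.09, adjusted p = 0.00245), but not after scaling (adjusted p = 0.665), while Rps27 had a change of -0.15 (adjusted p = 0.321). The difference within a pair was not tested. Rps4x fell by 0.61 with LPS (adjusted p = 0.000309) and Rpl39, a small protein of the exit tunnel, by 0.48 (adjusted p = 0.012), and neither passed after scaling.

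Within the groups of the fatty acid table most members agreed closely and a few did not. The median coefficient of variation of the members was 8.55% in untreated, 7.73% in LPS, 7.95% in fatty acid then LPS and 10.1% in TAK242 libraries. In these groups 3, 5, 3 and 3 of the 81 members had libraries at least 2-fold apart, against 3.80%, 11.2%, 3.92% and 3.80% of the 3978 genes with a mean of at least 10. Among the 8 genes concerned were Rps18, in all 4 groups, and Rpl18, Rpl22, Rps27a, Rps19, Rps28 and Rpl36al. Rpl18 ranged from 65.7 to 371 within the untreated group. Rps18 was at 794, 311 and 531 untreated and 307, 148 and 92.8 with TAK242. Rps19 had a fall by 0.97 with LPS (SE 0.38, adjusted p = 0.044) that did not pass after scaling (adjusted p = 0.224), and its LPS libraries were 4.11-fold apart.

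Some entries share sequence with others. Of the members, 15 share exon bases with a gene whose mean was at least 1, and 3 of these do so on the same strand. Beside Rpl24 these were Rpl13a, with 621 of its 2114 exon bases in Gm45713, and Rpl19, with the microRNA entry Gm27597. Opposite-strand partners included Sphk2 for Rpl18, Vps52 for Rps18, Gm33051 for Rpl22l1 and Lrsam1 for Rpl12. Whether the counting used strand is not given in the sources used here, so reads of such pairs cannot be told apart. Of 283 pseudogene names, 105 were listed at 0 in all 12 libraries, none had a mean of at least 1, and together they took at most 0.00322% of a library. Reads that fit a gene and its pseudogenes can have been assigned either way.

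The members lay on 19 chromosomes, with 14 on chromosome 7. Coordinates of 69 of the 81 equal those of GENCODE M21 on GRCm38. On that build Rpl10a spans chr17:28328471-28331032 and Rpl36 chr17:56613395-56614243, both on the plus strand. Rpl24 spans chr16:55966275-55971435 and Rplp2 chr7:141447370-141451585, also on the plus strand, and Rpl7l1 spans chr17:46773907-46782656 on the minus strand.

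Other genes of the translation apparatus were counted in lists. Fau and Rack1 encode ribosomal proteins outside the naming rule and are given as single genes, which describe no list. Fau had a mean of 605 ± 46.4 (SD, n = 3) untreated and 484 ± 13.1 (n = 3) with LPS alone, and fell by 0.32 (SE 0.12, adjusted p = 0.0421, limma) as deposited, with 0.049 (adjusted p = 0.729) after scaling. With fatty acid before LPS its mean was 282 ± 48.3 (n = 3), and against LPS alone it fell by 0.79 (adjusted p = 0.00124, limma) as deposited and by 0.86 (adjusted p = 0.000438) after scaling. Rack1 had a mean of 462 ± 35.2 (n = 3) untreated and 334 ± 17.1 (n = 3) with LPS alone, and fell by 0.47 (SE 0.11, adjusted p = 0.00351, limma) as deposited, with -0.10 (adjusted p = 0.464) after scaling. With fatty acid before LPS the mean of Rack1 was 202 ± 20.4 (n = 3), which fell by 0.72 (adjusted p = 0.00114, limma) against LPS alone as deposited and by 0.79 (adjusted p = 0.000623) after scaling. Of 19 translation factor and related genes whose mRNAs carry a TOP start, 16 fell (84.2%) and 0 rose with LPS as deposited, with a median of -0.47, beside 47.9% lower among all tested genes. After scaling 7 fell (36.8%) and 1 rose, with a median of -0.11, beside 27.9% and 26.2% of all genes. Tpt1 fell from a mean of 2388 to 961, by 1.32 (adjusted p = 3.42e-07), and the initiation factor Eif4b from 58.2 to 27.9, by 1.04 (adjusted p = 2.26e-07). With fatty acid before LPS against LPS alone 9 fell and 1 rose, beside 15.3% and 21.8% of all genes (11 and 1 after scaling, beside 19.8% and 19.9%), and with TAK242 1 rose.

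Ribosome biogenesis genes, which make ribosomal RNA and put subunits together, were called in both directions with LPS. Of 39 tested, 6 rose (15.4%) and 11 fell (28.2%) as deposited, with a median of -0.12, beside 13.8% and 47.9% of all tested genes. After scaling 15 rose (38.5%) and 1 fell (2.56%), with a median of 0.16, beside 26.2% and 27.9%. Bop1, needed for large subunit ribosomal RNA processing, rose from 14.5 to 23.8, by 0.68 (adjusted p = 0.000632), and Nop10, a protein of the particles that modify ribosomal RNA, fell from 16.7 to 8.71, by 0.87 (adjusted p = 0.000176). Against LPS alone, fatty acid then LPS had 13 lower (33.3%) and 0 higher, with a median of -0.30, beside 15.3% of all genes lower, and 18 lower after scaling (46.2%, beside 19.8%). Of 13 tested genes of growth signalling to these mRNAs, 1 rose and 6 fell (46.2%) with LPS, and 4 rose (30.8%) and 3 fell (23.1%) after scaling, which is near the shares of all genes just given. Sesn1, an inhibitor of mTOR signalling, fell from 38.8 to 4.64, by 2.91 (adjusted p = 2.35e-06), and Eif4ebp2, a repressor of cap-dependent initiation, from 1.37 to 0.630, by 0.54 (adjusted p = 7.04e-05). Of 78 mitochondrial ribosomal protein genes, 9 rose (11.5%) and 33 fell (42.3%) with LPS as deposited, with a median of -0.28, near the 13.8% and 47.9% of all genes. After scaling 23 rose (29.5%) and 6 fell (7.69%), with a median of 0.07, beside 26.2% and 27.9%. Between fatty acid then LPS and LPS alone 7 rose (8.97%) and 21 fell (26.9%), with a median of -0.13, beside 21.8% and 15.3% of all genes, and 5 rose and 26 fell after scaling (6.41% and 33.3%, beside 19.9% and 19.8%).

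In the Western diet table the level of Ccl5 did not go with the LPS labels. Ccl5, a chemokine gene that LPS turned on in every LPS library of the fatty acid table (3102 to 7141), was at 7846, 13.7 and 10973 where the label reads Western diet without LPS. It was at 0.463, 10.5 and 6905 in libraries labelled Western diet with LPS, and at most 2.38 in the chow libraries. So by Ccl5, replicates 1 and 3 labelled without LPS and replicates 1 and 2 labelled with LPS go against their labels. The comparisons are given with and without these 4 libraries. The 2 Western diet libraries then kept were chosen by their Ccl5 value. The 2 tables were fitted separately, and whether they share a normalization is not known.

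The ribosomal protein genes split the same libraries. Their share of the sum was 14.1%, 14.7% and 14.4% in chow, 4.94%, 14.3% and 4.33% in libraries labelled Western diet without LPS and 9.90%, 10.3% and 5.44% in those labelled with LPS. Against the chow mean, the median log2 of the 81 members was -1.60, 0.00 and -1.83 in the libraries labelled without LPS and -0.41, -0.31 and -1.54 in those labelled with LPS. Within the group labelled without LPS 79 of the 81 members, and within that labelled with LPS 61, had libraries at least 2-fold apart, against 51.5% and 31.0% of the 4209 genes with a mean of at least 10, and in chow it was 4 members, against 5.11%. Neutrophil and granulocyte precursor markers summed to 5.93 to 9.43 in chow, 1.71 to 2.06 in libraries labelled without LPS and 7.63 to 11.4 in those labelled with LPS. For stromal markers these sums were 1.86 to 2.89, 8.06 to 9.12 and 4.16 to 5.70. Between libraries labelled without and with LPS neither sum overlapped, so these low marker sums were apart by label where Ccl5 was not. Macrophage markers summed to 10213 to 12032, 5847 to 15418 and 9469 to 11629. The part of these markers was not tested. The number of members below the lowest chow library was 79, 29 and 81 in libraries labelled without LPS and 75, 73 and 79 in those labelled with LPS. No share over all genes is given for these counts, so they are not read as particular to the members. By the medians above, the 3 libraries with Ccl5 at 6905 or higher were those with the lowest member values. Replicates 1 and 2 labelled with LPS had Ccl5 at 0.463 and 10.5 and member values between those 3 libraries and chow.

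**Figure D5:**
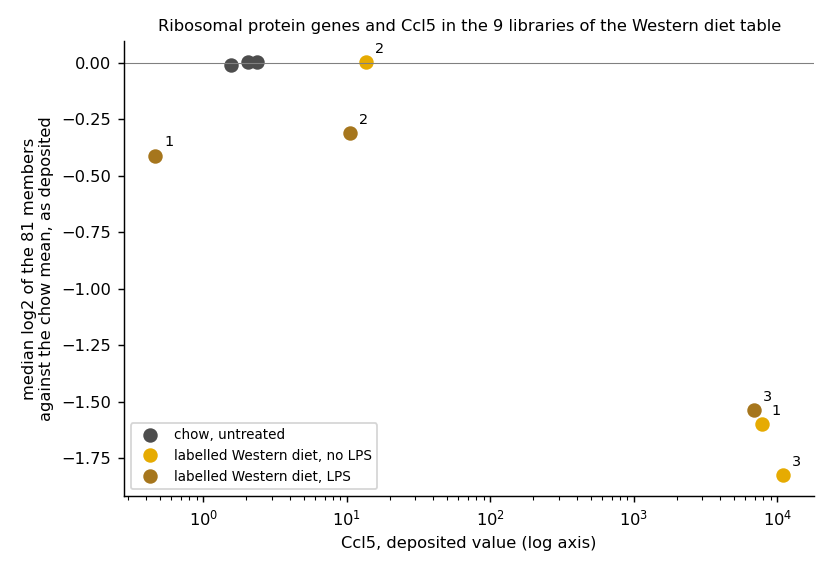
Median log2 of the 81 ribosomal protein genes against the chow mean (y axis, as deposited) and the deposited value of Ccl5 (x axis, log scale) in the 9 libraries of the Western diet table, numbered by replicate. The libraries with Ccl5 between 6905 and 10973 lie at -1.54 to -1.83, and the library labelled Western diet without LPS, replicate 2, lies at 0.00 beside the chow libraries.

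Fitted as labelled, Western diet without LPS against chow gave 0 members higher and 0 lower (limma, adjusted p under 0.05), against 0.0678% and 0.165% of the 10331 tested genes, and 33 at an unadjusted p under 0.05. The median was -1.13, the SEs ran from 0.24 to 0.89 and the smallest adjusted p was 0.183. After scaling there were 0 and 0, against 0.0871% and 0.136% of all genes, with a median of -0.73 and 30 at an unadjusted p under 0.05. For the counts of 33 and 30 no share over all genes is given. In 29 members the groups did not overlap on the lower side, against 21.1% of all genes, and replicate 2 alone lay below chow in as many. Leaving out the libraries that go against their labels gave 0 higher and 0 lower and a median of 0.01, and -0.02 after scaling. There the SEs as deposited ran from 0.09 to 0.86. That fit keeps 1 library on the Western diet side, which is assumed to vary like the 3 chow libraries, the only source of the spread. Leaving out only replicate 2 labelled without LPS gave 77 lower and a median of -1.68, against 44.4% of all tested genes lower, and 67 lower and -1.07 after scaling, against 26.0%.

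The libraries labelled Western diet with LPS against those without gave 0 higher and 0 lower, against 0.678% and 0.281% of all tested genes, and 0 at an unadjusted p under 0.05. After scaling there were 0 and 0, against 1.51% and 0.523%, and 2 at an unadjusted p under 0.05, again without the share over all genes. The median was 0.43 and the smallest adjusted p 0.383. Without the 4 libraries, 1 library stood on each side, so the median of -1.53, and of -1.06 after scaling, compares those 2 libraries and not the conditions. On either scale 80 of the 81 members were lower in the library labelled with LPS. No share over all tested genes is given for this count, so it is not read as particular to the members. Without replicate 2 labelled without LPS alone, 36 members were higher with a median of 0.99, against 29.8% of all tested genes higher. After scaling 12 were higher and 1 lower with a median of 0.54, against 18.2% and 18.8%. The median of this comparison was thus above or below 0 depending on the libraries kept.

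Single members show the same split. Rpl10a was at 461, 449 and 437 in chow, 67.9, 393 and 54.2 in libraries labelled Western diet without LPS, and 336, 356 and 109 in those labelled with LPS. Rps2, a small subunit protein at the mRNA entry, had the lowest change as labelled without LPS against chow, -2.09 (SE 0.71, adjusted p = 0.183), with 1055, 1150 and 644 in chow and 128, 700 and 112. With replicate 2 alone on the Western diet side the change of Rps2 was -0.40 (SE 0.36, adjusted p = 0.718). Rpsa was at 787, 730 and 779 in chow, at 134, 772 and 96.4 in the group labelled without LPS, and at 481, 525 and 177 in the group labelled with it. In all 3 genes, replicates 1 and 3 labelled without LPS lay below every other library.

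Rpl24 and Rpl7l1 varied less. Rpl24 was at 473, 485 and 465 in chow, 350, 510 and 311 in libraries labelled without LPS and 375, 406 and 302 in those labelled with LPS. Rpl7l1 was at 35.6, 38.3 and 34.2 in chow, 25.1, 42.4 and 21 labelled without LPS and 22.9, 25.1 and 20.8 labelled with LPS. Rps24 was at 1157, 1095 and 1192 in chow, 772, 1221 and 786 labelled without LPS and 889, 939 and 465 labelled with LPS. Their changes without LPS against chow, as labelled, were -0.31, -0.34 and -0.34 (adjusted p = 0.351, 0.337 and 0.45). With replicate 2 alone on the Western diet side they were 0.11, 0.23 and 0.09 (adjusted p = 0.71, 0.598 and 0.756).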

How the data were processed

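RNA-seq was available as 2 tables of deposited values per gene, 12 libraries in the fatty acid and 9 in the Western diet table. Per the submitters' processing notes, the authors used HISAT2 2.0.5, and CASAVA 1.8.2, Trim Galore 0.4.1 and FastQC 0.11.5 are listed too, as are 2 builds of unstated role, mm9 and mm10. The counting step and the unit of the deposited values are not given in the sources used here. No value is treated as a read count, so depth gives no interval.

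The members and gene lists were chosen with earlier results of these data known. The naming rule was read as Rpl or Rps, digits, up to 2 of the letters a, l, x, y and p and at most 1 further digit. Left out were 36 and 35 malformed entries (17 and 18 gene IDs), whose numbers stood in annotation columns. Each table kept the genes that reached 1 in 3 libraries (10476 and 10331). The model was limma 3.58.1 in R 4.3.3 on log2(value + 1), with a mean-variance trend and all groups of a table in 1 fit. P-values were adjusted by Benjamini-Hochberg over all genes tested, with 0.05 as the threshold. The procedure was tested on simulated data. Members named are the 4 highest and 4 lowest changes per comparison, the 4 highest and lowest means, names at the rule's limit, paralog pairs, the stalk genes with Rpsa, Rps6 and Rpl41, and calls against the prevailing direction. Lists name the 2 genes of smallest adjusted p with LPS. Rps16, Rps26, Rpl27a and other names outside this rule were chosen after their values were seen. Alternatives were median-ratio scaling, library sums, other pseudocounts and filters, fits on fewer libraries, a replicate block and each library left out. Python 3.11.15, pandas 2.3.3 and matplotlib 3.10.9 were used. RefSeq starts on GRCm38.p6 gave the sequences. Values of some genes are not reported here.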

Additional observations from a re-analysis of the deposited data

How the results depend on the processing

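Relative to untreated, LPS gave 65 members lower and 1 higher as deposited, but 18 lower and 3 higher after median-ratio scaling. Leaving out each library in turn gave 59 to 64 lower as deposited and 10 to 23 after scaling, lowest without untreated replicate 1 or LPS replicate 2. For fatty acid before LPS against LPS alone the count lower ranged from 45 to 57 (54 to 61 scaled), and 1 member was higher with library sums. With TAK242 the count higher was 1 with no filter and 0 to 5 with a library left out (1 to 6 scaled). For fatty acid then LPS against untreated, 1 member was higher after scaling and with library sums, and 0 after scaling under a stricter reading of the names; 71 to 75 were lower with a library left out (62 to 67 scaled). In the Western diet table, Western diet without LPS against chow gave 0 to 77 lower (0 to 67 scaled), and with against without LPS 0 to 36 higher (0 to 12 scaled) and 0 to 1 lower scaled, the high ends all without replicate 2 labelled without LPS. Without the 4 libraries whose Ccl5 was at odds with their labels, the latter comparison had a median of -1.53, and -1.06 scaled. With 1 library a side, kept by its Ccl5 value, this compares 2 libraries and not the conditions. For most of these fits the shares over all genes are not given, so the counts describe only how the members' calls moved. The cause of these shifts was not tested.

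Among named members, these log2 changes turned sign. With LPS after scaling: Rpl22 0.25, Rpl27 0.29, Rplp2 0.16, Rps27 0.21 and Rps6 0.023; Rpl36al -0.034 with library sums. With fatty acid before LPS against LPS alone after scaling: Rpl5 -0.039 and Rps24 -0.063. For fatty acid then LPS against untreated, Rpl24 was 0.26 after scaling and 0.028 with library sums, and Rpl9 0.045 after scaling. For Western diet without LPS against chow after scaling: Rpl24 0.086, Rpl36al 0.19, Rpl7l1 0.047 and Rps24 0.058, and without the 4 libraries Rpl24 0.11, Rpl3 0.022, Rpl36al 1.00, Rpl7l1 0.23, Rps24 0.089 and Rpsa 0.013. For Western diet with against without LPS, without the 4 libraries: Rpl10a -1.84, Rpl22l1 -1.59, Rpl3 -1.76 and Rps2 -1.68.

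With a library left out, the values crossing 0 ranged as follows. With LPS, Rpl22 ran from -0.47 to 0.094 and Rpl36al from -0.21 to 0.13. With fatty acid before LPS against LPS alone, Rpl5 ran from -0.22 to 0.20, Rps19 from -0.47 to 0.54 and Rps24 from -0.025 to 0.045. With TAK242, Rpl41 ran from -0.0093 to 0.30, Rps27 from -0.10 to 0.090 and Rps29 from -0.0072 to 0.21. For fatty acid then LPS against untreated, Rpl24 ran from -0.088 to 0.0078. In the Western diet table, Rpl36al ran from -0.80 to 0.14 without LPS against chow, and Rps15a from -0.56 to 0.23, Rps18 from -0.85 to 0.62 and Rps24 from -0.49 to 0.014 with against without LPS.

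Libraries of 1 number did not deviate together in the fatty acid table (r from -0.081 to 0.061). In the Western diet table, the r of libraries labelled with and without LPS was -0.666, 0.681 and 0.761 for numbers 1, 2 and 3. The numbers are not taken to pair libraries in either table. A replicate block gave 66 lower and 1 higher with LPS, 60 and 0 with fatty acid before LPS against LPS alone, 0 lower and 4 higher with TAK242, 76 lower and 0 higher for fatty acid then LPS against untreated, and 0 and 0 for Western diet with against without LPS. Shares over all genes are not given for these block fits. For Western diet without LPS against chow, no paired analysis was possible because these groups share no replicate number.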
